A study of Mus musculus with 10 samples.

Results

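The receptor CXCR3 and its chemokine ligands CXCL9, CXCL10 and CXCL11 were followed in tumors resected before poly(I:C) hydrogel was given. The genes were taken by symbol from the deposited expression table: Cxcl9, Cxcl10, Cxcl11 and Cxcr3, 4 of 26378 named genes, and all 4 passed the filter on low values. The tumors were of WEHI 164, a fibrosarcoma line of BALB/c origin, grown under the skin of wild-type female BALB/c mice that the methods give as 8 to 12 weeks old when obtained. At surgery 75% of the tumor was removed, RNA of this untreated tissue was sequenced, and the hydrogel was then laid on what remained. Mice were later selected as responders (RS, 5 tumors), in which the tumor regressed completely, or as non-responders (NR, 5 tumors), in which growth was not delayed. Tumors keep the numbers of the labels, which are 5, 9, 10, 11 and 12 for RS and 1, 2, 3, 6 and 7 for NR. All 10 tumors come from 1 transplanted line and 1 strain, and each is a bulk piece of tumor together with its stroma and infiltrate.

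The library totals were 15778514 to 30785470 estimated counts in RS (median 25287711) and 19606254 to 27908507 in NR (median 22484731), counting rows that carry a gene name. A list of 7 genes of fibroblasts and fibrosarcoma summed to 8743 ± 477 CPM (counts scaled to a common library size, SD, n = 5) in RS and 9096 ± 682 in NR. Vim, the intermediate filament vimentin, was the most abundant of them at a mean of 4827 CPM. Each piece also holds stroma, so this sum does not tell the tumor line from host fibroblasts. The epidermal keratin Krt5 had 0 to 6 counts per tumor.

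CXCL9, CXCL10 and CXCL11 are small secreted chemokines that interferon gamma induces in myeloid cells, endothelium, fibroblasts and tumor cells. They bind CXCR3, a G protein-coupled receptor on activated T cells, NK cells and some plasmacytoid dendritic cells, and draw these cells into inflamed tissue. Type I interferon and NF-kappaB signaling also drive Cxcl10 and Cxcl11, and CXCL9 depends most on interferon gamma.

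The 3 ligand genes lie side by side on the minus strand of mouse chromosome 5 (GRCm38, GENCODE annotation). Cxcl9 (ENSMUSG00000029417.9) spans chr5:92321347-92328079, Cxcl10 (ENSMUSG00000034855.13) chr5:92346638-92348889 and Cxcl11 (ENSMUSG00000060183.6) chr5:92359544-92365485, so that the cluster covers 44139 bases. Cxcr3 (ENSMUSG00000050232.6) is on the minus strand at chrX:101731535-101734269. Cxcl10 and Cxcl11 lie inside Art3, a gene of the ADP-ribosyltransferase family on the opposite strand. Art3 shares 133 exonic bases with Cxcl10 and 0 with Cxcl9 and Cxcl11. Whether strand was used in the counting is not given in the sources used here, so reads from those shared bases could not be split by strand. Art3 itself was at 2.55 ± 0.697 CPM (SD, n = 5) in RS, far under Cxcl10.

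The annotation types Cxcl11 as a polymorphic pseudogene, because the C57BL/6 strain behind the reference genome carries a frame-breaking insertion in its coding sequence. BALB/c mice, the hosts here, carry the intact frame. The stretch is shown because it is where the annotated transcripts part. Both run 5′ to 3′ on the minus strand at chr5:92363156-92363199, and capitals mark the 2 bases (chr5:92363177-92363178) that transcript Cxcl11-201 skips and Cxcl11-202 keeps. The site follows 36 coding bases. The counts are per gene, so they do not tell which form was read.
Cxcl11-202: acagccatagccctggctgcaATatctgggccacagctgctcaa
Cxcl11-201: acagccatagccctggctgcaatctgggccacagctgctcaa

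The promoters of the most abundant ligands are shown because the ligands varied together across tumors. RefSeq entries (GRCm38.p6) were matched for 3 of the 4 genes, and Cxcl11 had none. The 250 bases before the start are chr5:92328080-92328329 for Cxcl9 and chr5:92348890-92349139 for Cxcl10, both on the minus strand and written 5′ to 3′. Capitals mark matches, on either strand, to a core of the interferon-stimulated response element (GAAA, any 2 bases, GAAA) or to the kappaB motif (GGG, any 3 bases, T, any base, CC).
Cxcl9: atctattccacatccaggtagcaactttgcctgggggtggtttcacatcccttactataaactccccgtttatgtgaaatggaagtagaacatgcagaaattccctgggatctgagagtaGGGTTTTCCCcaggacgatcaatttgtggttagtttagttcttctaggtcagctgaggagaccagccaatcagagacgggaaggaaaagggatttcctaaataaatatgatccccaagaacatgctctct
Cxcl10: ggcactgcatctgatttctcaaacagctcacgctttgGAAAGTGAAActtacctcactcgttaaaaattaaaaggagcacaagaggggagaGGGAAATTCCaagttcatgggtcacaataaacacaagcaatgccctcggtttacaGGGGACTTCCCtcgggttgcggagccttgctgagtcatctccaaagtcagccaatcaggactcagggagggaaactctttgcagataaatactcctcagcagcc

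In Cxcl9 the kappaB letters GGGTTTTCCC stood at bases -130 to -121 from the start. In Cxcl10 the interferon-stimulated core GAAAGTGAAA stood at -213 to -204, a kappaB match GGGAAATTCC at -159 to -150, and 2 overlapping kappaB matches filled -104 to -94. The gamma-activated sequence (TTC, any 3 bases, GAA) had no exact match in these windows, and elements that depart from these letters were not searched. Of 32851 mouse promoters of the same length, 2.98% held the interferon-stimulated core, 14.9% the kappaB motif and 7.02% the gamma-activated sequence, so the kappaB letters are common by themselves. These matches describe the letters and are not measured binding.

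All 3 ligands and the receptor had higher means in RS than in NR, and no gene in the table, these 4 included, passed the threshold of an adjusted p of 0.05. The ligands were each about 1.4-fold higher and their groups overlapped through NR tumor 3. Cxcr3 was higher in 4 of 5 RS tumors than in every NR tumor, but the remaining RS tumor, number 5, had the lowest Cxcr3 of all 10. The quasi-likelihood test of edgeR, adjusted after Benjamini-Hochberg over all genes, called 0 of 14944 genes (0.0%), while 1250 genes (8.36%) had an unadjusted p under 0.05. DESeq2 called 1 gene, Col6a2, a chain of collagen VI that was lower in RS and is named after its value was seen.

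**Figure D1:**
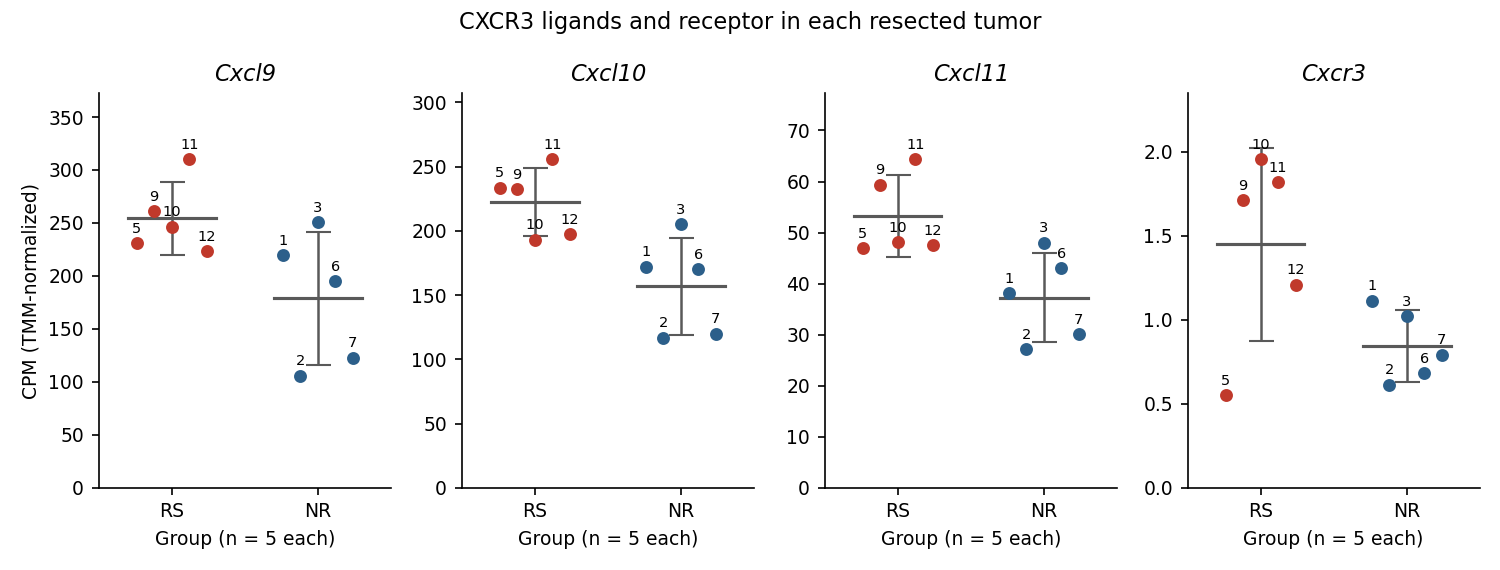
CPM of each gene (vertical axis, TMM-normalized, starting at 0) in each tumor, by group; points are tumors with their numbers, lines are group means and bars are SD (n = 5). NR tumors 2 and 7 are lowest for every ligand and RS tumor 11 is highest, while for Cxcr3 RS tumor 5 lies under all others at 0.552 CPM.

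Cxcl9, the ligand that leans most on interferon gamma, was at 230.7, 261, 246, 310.2 and 223 CPM in RS tumors 5, 9, 10, 11 and 12. In NR tumors 1, 2, 3, 6 and 7 it was at 219.7, 106, 251, 195 and 123 CPM. The groups overlapped only through NR tumor 3, which exceeded 3 of the RS tumors, and the other 4 NR tumors lay under every RS tumor. The means were 254 ± 34.4 and 179 ± 62.5 CPM (SD, n = 5), a log2 fold change of 0.51 (SE 0.20, 95% confidence interval 0.08 to 0.95). The edgeR quasi-likelihood p was 0.025 and the Benjamini-Hochberg adjusted p was 0.572. The exact two-sided permutation test of log2(CPM + 1) gave a difference of 0.57 and p = 0.0476, where the smallest p that 5 against 5 tumors allow is 0.00794. With a tumor left out, this permutation p was under 0.05 in 2 of 10 settings and reached 0.127.

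Cxcl10, also called IP-10, was at 233, 232, 193, 256 and 197 CPM in RS tumors 5, 9, 10, 11 and 12. In NR tumors 1, 2, 3, 6 and 7 it was at 172, 117, 205, 169.9 and 119.9 CPM. NR tumor 3 again stood above RS tumors 10 and 12, and no other NR tumor reached the RS range. The means were 222 ± 26.5 and 157 ± 37.7 CPM (SD, n = 5), a log2 fold change of 0.51 (SE 0.14, 95% confidence interval 0.20 to 0.81). The edgeR p was 0.00352 (adjusted p = 0.555), and 74 of the genes tested (0.495%) had a p as small or smaller. The exact permutation test gave a difference of 0.53 and p = 0.0238.

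Cxcl11, the ligand with the highest affinity for CXCR3, was at 46.9, 59.4, 48.1, 64.4 and 47.5 CPM in RS tumors 5, 9, 10, 11 and 12. In NR tumors 1, 2, 3, 6 and 7 it was at 38.1, 27.1, 48.0, 43.1 and 30.1 CPM. NR tumor 3 lay within the RS range and the other 4 NR tumors lay under it. The means were 53.3 ± 8.08 and 37.3 ± 8.73 CPM (SD, n = 5), a log2 fold change of 0.52 (SE 0.15, 95% confidence interval 0.20 to 0.84). The edgeR p was 0.00383 (adjusted p = 0.555), and the exact permutation test gave a difference of 0.52 and p = 0.0238.

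Cxcr3, the receptor, was scarce: it had 14, 27, 39, 55 and 31 counts in RS tumors 5, 9, 10, 11 and 12 and 25, 17, 20, 15 and 20 counts in NR tumors 1, 2, 3, 6 and 7. These were 0.552, 1.71, 1.95, 1.82 and 1.21 CPM in RS and 1.11, 0.614, 1.02, 0.683 and 0.792 CPM in NR. RS tumors 9 to 12 stood above every NR tumor and RS tumor 5 stood below every NR tumor. The means were 1.45 ± 0.575 and 0.844 ± 0.215 CPM (SD, n = 5), a log2 fold change of 0.77 (SE 0.31, 95% confidence interval 0.10 to 1.45). The edgeR p was 0.0282 (adjusted p = 0.573), and 730 of the genes tested (4.88%) had a p as small or smaller. The exact permutation test gave a difference of 0.38 and p = 0.0873. When single tumors were left out, the exact permutation p was 0.00794 without RS tumor 5, the tumor against the direction of the others, and 0.0873 to 0.175 without any other tumor. The edgeR p was under 0.05 in 4 of the 10 fits with a tumor left out. With limma-voom, another test, p was 0.0809. At 14 to 55 counts the counting error alone is 26.7% to 13.5% of the value, so the Cxcr3 level of a single tumor is known far less well than that of the ligands, which had 751 or more counts. In bulk tumor RNA fewer cells carrying a transcript and less of it per cell cannot be told apart.

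All 4 genes had the higher mean in RS, as did 50.3% of all genes tested, and all 4 had an unadjusted edgeR p under 0.05 in that direction, against 4.75% of all genes (3.61% in the other direction). The 3 ligands varied together across the tumors, so they are not 3 separate results. The 4 genes were chosen with earlier results of these data known, so these counts are descriptions. The 3 ligands, and not Cxcr3, were also under 0.05 by the exact permutation test, against 6.62% of all genes in either direction and 3.28% with the higher mean in RS. With a tumor left out, that held in 2 of 10 settings for Cxcl9, 9 for Cxcl10 and 8 for Cxcl11. For none of the 4 did every RS tumor exceed every NR tumor, which held for 61 genes (0.408%). The ligands varied less among RS than among NR tumors, with coefficients of variation of 13.5% and 34.9% for Cxcl9, 11.9% and 24.02% for Cxcl10, and 15.2% and 23.4% for Cxcl11. This difference in spread was not tested. Cxcr3 had the opposite order, 39.7% in RS and 25.4% in NR.

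The shares of the ligands in their sum differed little between RS and NR on average, and varied between tumors of a group. The ligand CPM summed to 511, 553, 488, 630.2 and 468 in RS tumors 5, 9, 10, 11 and 12, and to 429.9, 249.7, 504, 408 and 273 in NR tumors 1, 2, 3, 6 and 7. Of that sum of reads, which is not corrected for transcript length and so does not rank the ligands, Cxcl9 made up 47.6% ± 2.78 (SD, n = 10), Cxcl10 42.3% ± 2.44 and Cxcl11 10.1% ± 0.733. The log2 ratio of Cxcl9 to Cxcl10 counts was 0.19 ± 0.14 in RS and 0.15 ± 0.20 in NR (SD, n = 5; exact permutation p = 0.706, adjusted over 5 ratios p = 0.893). That of Cxcl11 to Cxcl10 was -2.07 ± 0.14 in RS and -2.07 ± 0.08 in NR (exact permutation p = 0.952, adjusted p = 0.952). That of Cxcl9 to Cxcl11 was 2.26 ± 0.08 in RS and 2.22 ± 0.24 in NR (exact permutation p = 0.714, adjusted p = 0.893). These differences between group means were all smaller than the spread between tumors of a group. Single tumors ranged from 0.904 (NR tumor 2) to 1.28 (RS tumor 10) for the ratio of Cxcl9 to Cxcl10 counts. The ratio of Cxcl9 to Cxcl11 ranged from 3.89 (NR tumor 2) to 5.76 (NR tumor 1), a spread about as large as the fold change of the ligands between the groups.

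Levels of different genes can be set side by side only per transcript length. Per kilobase of the longest annotated transcript, the mean level over the 10 tumors was 85.0 CPM for Cxcl10, 74.96 for Cxcl9, 11.9 for Cxcl11 and 0.662 for Cxcr3. In RS the neighbors Cxcl10 and Cxcl9 were at 99.7 ± 11.9 and 88.0 ± 11.9 CPM per kilobase (SD, n = 5), a difference no larger than the spread. With the longest protein-coding transcript instead, the values were 140.1 for Cxcl10, 74.96 for Cxcl9 and 28.6 for Cxcl11. The order Cxcl10, Cxcl9, Cxcl11, Cxcr3 held under both lengths.

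Across the 10 tumors the ligands moved together, and the receptor followed them loosely. On log2(CPM + 1), Pearson's r was 0.956 for Cxcl9 with Cxcl10 (Spearman's rho 0.903), 0.950 for Cxcl9 with Cxcl11 (rho 0.964) and 0.960 for Cxcl10 with Cxcl11 (rho 0.830). Over the 6 pairs tested, the adjusted permutation p of these r was 0.00016 each, and that of rho was 0.00249, 0.0003 and 0.00998. Without NR tumors 2 and 7, the farthest from the median, r was 0.826, 0.856 and 0.866 (n = 8, adjusted exact permutation p = 0.0173 each). The rho of the same 8 tumors was 0.810, 0.929 and 0.667, with adjusted exact permutation p of 0.0653, 0.0134 and 0.125, so by rank only the pair of Cxcl9 and Cxcl11 was still under 0.05. Taken as deviations from the group means, with both groups pooled, r was 0.938, 0.924 and 0.915. The ligands varied more among NR than among RS tumors, and r within each group alone was not computed.

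Cxcr3 had an r of 0.655 with Cxcl9 (adjusted permutation p = 0.0473; rho 0.648, adjusted p = 0.0567) and of 0.677 with Cxcl11 (adjusted permutation p = 0.0448; rho 0.745, adjusted p = 0.0261). With Cxcl10 r was 0.535 (permutation p = 0.112, adjusted p = 0.112; rho 0.370, adjusted p = 0.296). As deviations from the group means these r were 0.460, 0.455 and 0.198, with adjusted permutation p of 0.225, 0.225 and 0.593. Without NR tumors 2 and 7 they were 0.689, 0.592 and 0.306 (n = 8, adjusted exact permutation p = 0.0797, 0.146 and 0.443). No pair with Cxcr3 had an adjusted p under 0.05 in either of these forms, by r or by rho.

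**Figure D2:**
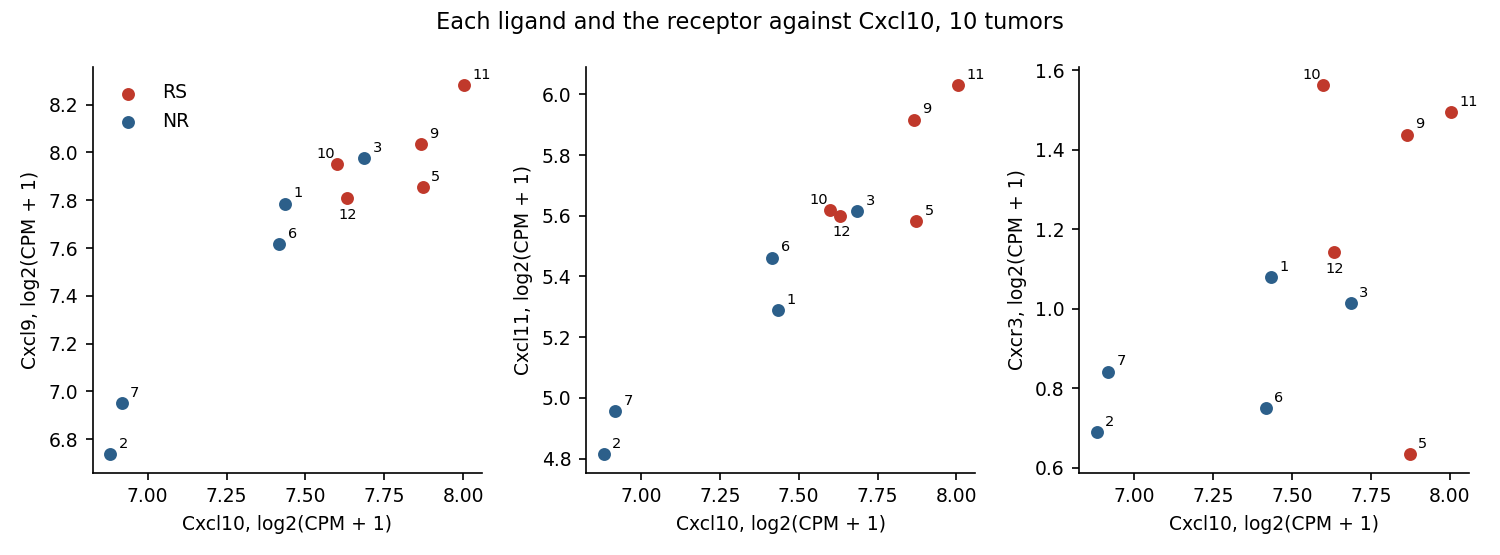
Cxcl9, Cxcl11 and Cxcr3 (vertical axes, log2(CPM + 1)) against Cxcl10 (horizontal axes, log2(CPM + 1)); each point is a tumor with its number, colored by group. The ligands line up along a diagonal from NR tumors 2 and 7 to RS tumor 11, and in the Cxcr3 panel RS tumor 5 lies at the lower right, with high Cxcl10 and the lowest Cxcr3.

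The genes most like each ligand were found by Pearson's r over the 10 tumors, among 13090 genes with a mean of at least 1 CPM. Closest to Cxcl9 were Rnf31 (r = 0.996), a subunit of the linear ubiquitin ligase, the guanylate-binding protein Gbp8 (0.980), the transcription factor Batf2 (0.966), the ubiquitin ligase Marchf1 (0.959) and Cxcl10. Closest to Cxcl10 were Gbp5 (0.979), the interferon-induced GTPase Irgm1 (0.978), Ly6c2 (0.976), Apol6 (0.976) and Gm12185 (0.9749). Closest to Cxcl11 were Ly6a (0.994), Ly6c1 (0.987), Gm4841 (0.980), Ly6c2 (0.977) and Zbp1 (0.9746), a sensor of Z-form nucleic acid. Ly6c1 and Ly6c2 are near-identical paralogs whose reads can be assigned to either.

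Closest to Cxcr3 were Mxd1 (r = 0.974), a MAX-binding repressor, the complement regulator Cfp (0.964), the T cell surface receptor Cd6 (0.964), the actin-binding Ablim1 (0.958) and Fasl (0.949), the death ligand of cytotoxic lymphocytes. None of these 5 was among the genes closest to a ligand. Its own ligands stood far down that order, Cxcl11 at rank 939, Cxcl9 at rank 1052 and Cxcl10 at rank 1816. These are descriptions over shared libraries and carry no test.

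The genes that induce the ligands were mostly measured at slightly higher means in RS. Of 16 inducers 14 had the higher mean in RS (50.3% of all genes did), 4 had an unadjusted edgeR p under 0.05 in that direction (4.75% of all genes) and 0 in the other (3.61%), and the median log2 fold change was 0.13 beside 0.00 over all genes. Ifng, the gene of interferon gamma, was at 1.498, 3.10, 2.004, 4.001 and 2.34 CPM in RS tumors 5, 9, 10, 11 and 12 and at 1.78, 0.722, 1.48, 2.05 and 1.149 CPM in NR tumors 1, 2, 3, 6 and 7. The groups overlapped: RS tumor 5 lay under NR tumors 1 and 6, and RS tumors 9, 11 and 12 lay above every NR tumor. Its log2 fold change was 0.87 (SE 0.30, edgeR adjusted p = 0.566; the unadjusted p was under 0.05), at 20 to 121 counts per tumor.

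Irf1, a transcription factor that interferon gamma induces and that binds interferon-stimulated elements, had a log2 fold change of 0.42 (SE 0.14, edgeR adjusted p = 0.555), and Irf9, the DNA-binding part of the type I interferon complex ISGF3, had 0.18 (SE 0.08, adjusted p = 0.589).

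The inducers that follow had an unadjusted p above 0.05. Stat2, a subunit of ISGF3, had a log2 fold change of 0.23 (SE 0.11, edgeR adjusted p = 0.5999). The receptor chains Ifngr1, Ifngr2, Ifnar1 and Ifnar2 had 0.06, 0.11, 0.09 and 0.17. The kinases Jak1, Jak2 and Tyk2 had 0.02, 0.15 and -0.03. Tnf, which acts with interferon gamma on Cxcl9 and Cxcl10, had 0.27, its receptor Tnfrsf1a had 0.11, and the NF-kappaB subunits Nfkb1 and Rela had 0.01 and -0.06.

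Other targets of interferon gamma also had higher means in RS. All 14 listed had the higher mean in RS, 12 with an unadjusted edgeR p under 0.05 (against 4.75% of all genes) and 0 with an adjusted p under 0.05, and their median log2 fold change was 0.48. The smallest p were those of Cd274, the gene of PD-L1, with a log2 fold change of 0.79 (SE 0.21), Nos2, inducible nitric oxide synthase, with 1.17 (SE 0.34), and Ido1, which breaks down tryptophan, with 0.70 (SE 0.21), each with an edgeR adjusted p of 0.555. The list was chosen with earlier results of these tumors known, so its count is a description.

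**Figure D3:**
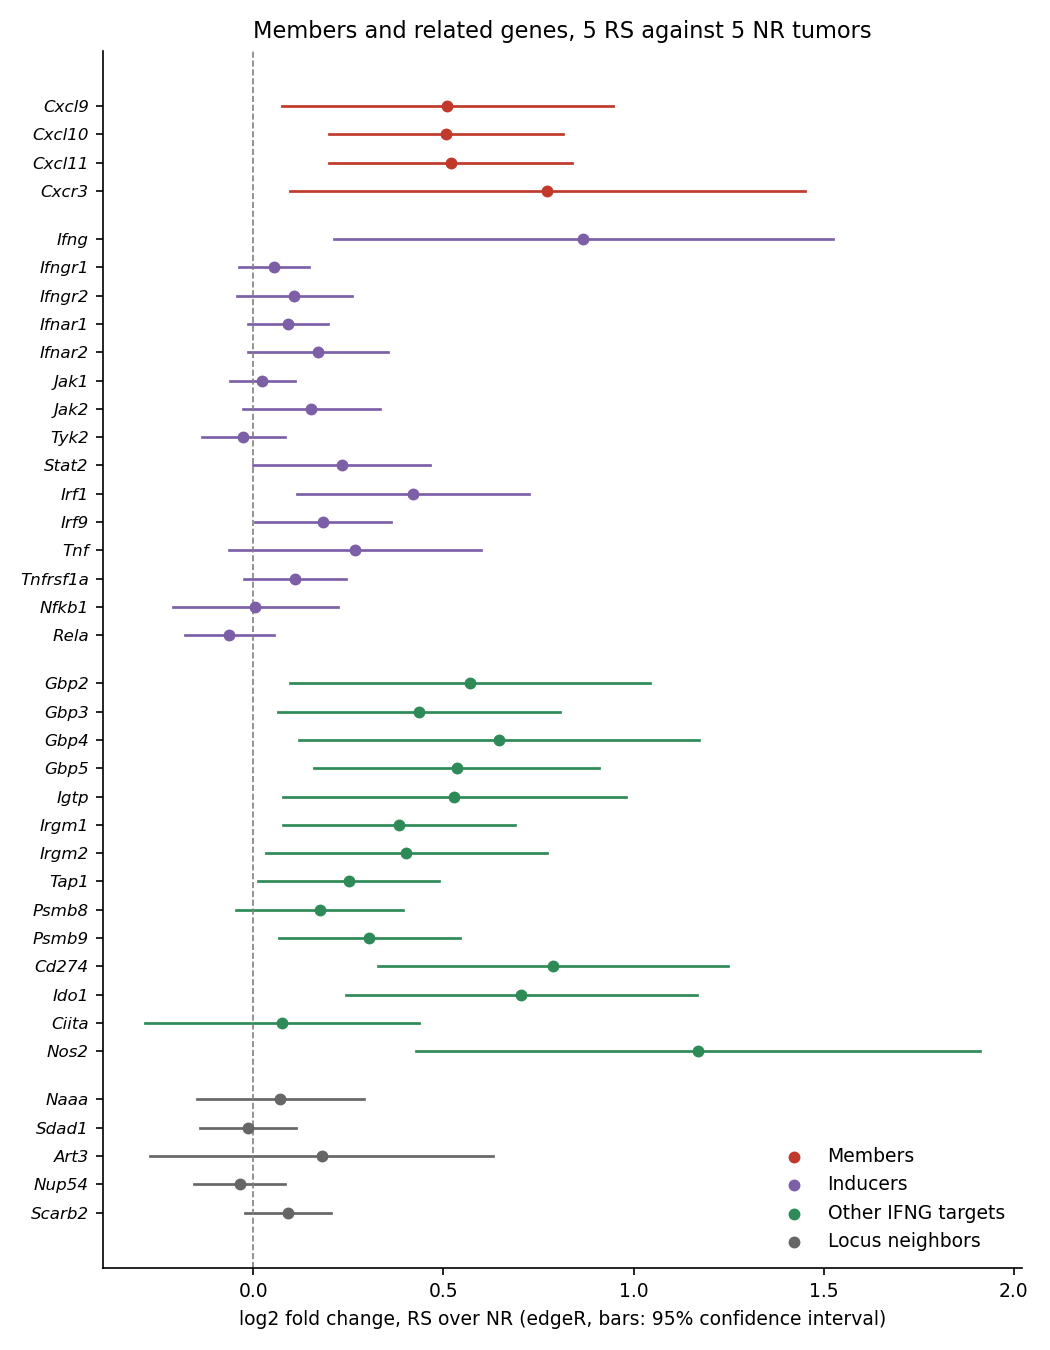
log2 fold change of RS over NR (horizontal axis, edgeR) with its 95% confidence interval (bars) for the 4 genes, the inducers named here, other interferon gamma targets and the neighbors of the ligand cluster. The ligands sit near 0.5, close to the median of the listed interferon gamma targets (0.48), which spread widely around it. The neighbors sit nearer 0.

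Of 6 feedback inhibitors of interferon signaling 5 had the higher mean in RS (50.3% of all genes did), at a median log2 fold change of 0.10 beside 0.00 over all genes. An unadjusted edgeR p under 0.05 was found for 1 of the 6 (4.75% of all genes had one with the higher mean in RS), Socs1, a JAK inhibitor that interferon gamma induces, with a log2 fold change of 0.29 (SE 0.13, adjusted p = 0.597). Next by p were Ptpn6, the phosphatase SHP-1, at 0.13 (SE 0.10), and Ptpn2, a phosphatase that acts on JAK1, at 0.08 (SE 0.06). Of the genes that remove the ligands, Dpp4, the peptidase that trims all 3, had a log2 fold change of 0.09 (SE 0.25), and Ackr3, a scavenging receptor of CXCL11, had 0.04 (SE 0.12), with edgeR adjusted p of 0.946 and 0.954. Of 8 genes that carry the CXCR3 signal, 0 had an unadjusted p under 0.05, against 8.36% of all genes, and the median log2 fold change was -0.03. The smallest p among them were those of Rac2, a GTPase of blood cells (0.28, SE 0.14), Gnai2, the inhibitory G protein that CXCR3 couples to (-0.12, SE 0.07), and Dock2, an activator of Rac (0.15, SE 0.09). Most of these genes are expressed in many cell types.

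The genes around the ligand cluster had log2 fold changes nearer 0. Art3, which encloses Cxcl10 and Cxcl11, had a log2 fold change of 0.18 (SE 0.21). Naaa, an acid amidase, had 0.07 (SE 0.10), Sdad1, a ribosome biogenesis gene, -0.01 (SE 0.06), Nup54, a nuclear pore subunit, -0.04 (SE 0.06), and Scarb2, a lysosomal membrane protein, 0.09 (SE 0.05). The edgeR p of all 5 was above 0.05 before adjustment, and 8.36% of all genes had one under it. Their median was 0.07, and a difference between them and the ligands was not tested.

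**Figure D4:**
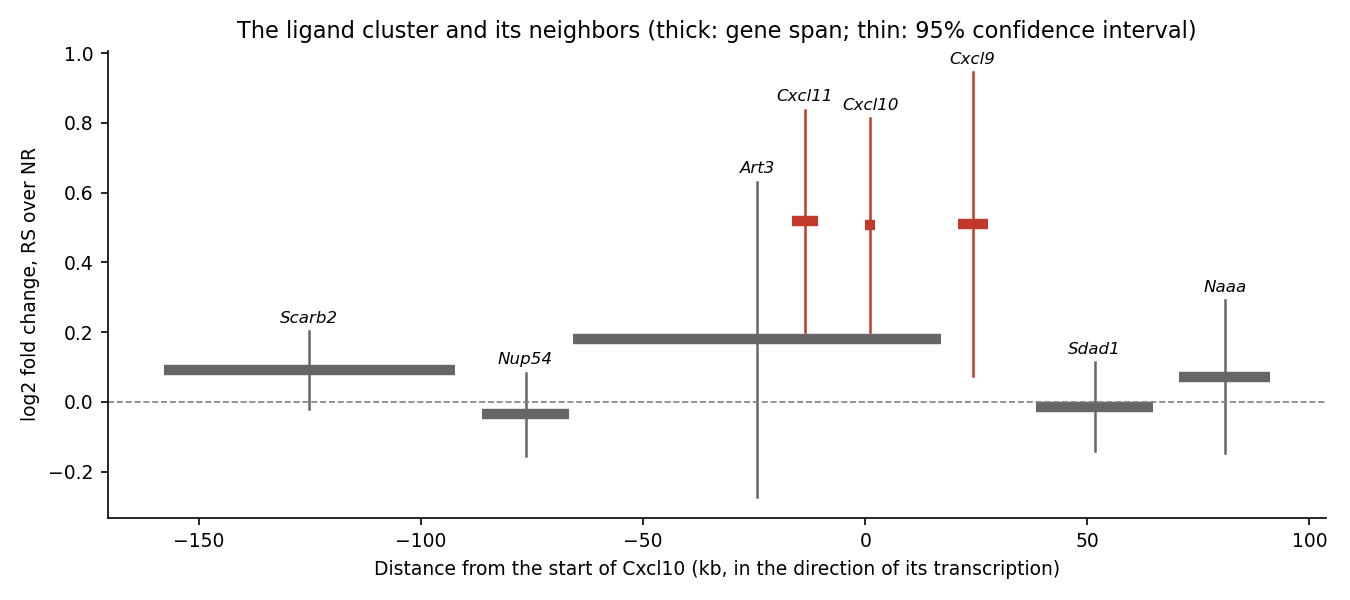
log2 fold change of RS over NR (vertical axis) of the ligands (red) and neighboring genes (gray) against distance from the start of Cxcl10 in kilobases; thick bars are gene spans and thin bars 95% confidence intervals. The ligands sit near 0.5 and the intervals of the 5 neighbors include 0.

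Markers of T cells and NK cells, which carry CXCR3, were summed in each tumor and set beside Cxcr3. The T cell markers (8 of 9 listed were in the table, and Trac was not) summed to 16.05, 41.0, 42.1, 48.9 and 33.0 CPM in RS tumors 5, 9, 10, 11 and 12 and to 40.6, 17.5, 25.8, 28.003 and 22.3 CPM in NR tumors 1, 2, 3, 6 and 7. RS tumor 5, lowest for Cxcr3, was also the lowest of the 10 for these markers. All 8 had the higher mean in RS (50.3% of all genes did), 0 with an unadjusted edgeR p under 0.05 (4.75% of all genes with the higher mean in RS), and their median log2 fold change was 0.48. Cd4 was the most abundant at a mean of 7.81 CPM.

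The NK cell markers summed to 34.9, 115, 131, 215 and 124 CPM in RS tumors 5, 9, 10, 11 and 12 and to 72.1, 29.0, 42.6, 70.2 and 35.5 CPM in NR tumors 1, 2, 3, 6 and 7. RS tumors 9 to 12 were above every NR tumor and RS tumor 5 was second lowest of all 10, which is the pattern of Cxcr3 apart from that last rank. Of 7 markers past the filter 6 had an unadjusted edgeR p under 0.05 with the higher mean in RS, against 4.75% of all genes, at a median log2 fold change of 0.90. Gzma, granzyme A, was the most abundant (36.6 CPM) and Klra8 had 0 counts in every tumor. Genes of type 1 effector lymphocytes, a list that contains Ifng, summed to 118 ± 58.6 CPM (SD, n = 5) in RS and 48.4 ± 13.0 in NR, with 40.1 CPM in RS tumor 5. Of these 6 genes 5 had an unadjusted p under 0.05 with the higher mean in RS, against 4.75% of all genes, the most abundant being Gzmb, granzyme B. The part of these cells in the Cxcr3 values was not tested.

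Set against a T cell gene in the same tumor, Cxcr3 of RS tumor 5 lay within the range of the other RS tumors, and set against a gene of all leukocytes it was the lowest of the 10. The log2 ratio of Cxcr3 to Cd3e counts, a subunit of the T cell receptor complex, was -1.41, -1.16, -1.33, -1.57 and -1.64 in RS tumors 5, 9, 10, 11 and 12. It was -1.91, -1.93, -1.61, -2.01 and -1.86 in NR tumors 1, 2, 3, 6 and 7. Only NR tumor 3 lay within the RS range. The difference of the means, -1.42 ± 0.19 against -1.86 ± 0.15 (SD, n = 5), was 0.44 (exact permutation p = 0.0159, adjusted over 5 ratios p = 0.0794), so it did not pass the adjusted threshold. Against Ptprc, the leukocyte antigen CD45, the log2 ratio was -7.41, -6.18, -6.00, -6.21 and -6.55 in RS tumors 5, 9, 10, 11 and 12. It was -6.65, -7.15, -6.87, -7.27 and -6.78 in NR tumors 1, 2, 3, 6 and 7. RS tumors 9 to 12 lay above every NR tumor and RS tumor 5 below every NR tumor, as for Cxcr3 itself. The means were -6.47 ± 0.56 in RS and -6.94 ± 0.26 in NR (SD, n = 5; exact permutation p = 0.127, adjusted p = 0.317).

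Summed markers of cells that can make the ligands, and of plasmacytoid dendritic cells, had closer group means. The macrophage markers summed to 1605 ± 200.02 CPM (SD, n = 5) in RS and 1436 ± 179.8 in NR, with C1qa, a complement subunit, the most abundant. Of the 8, 7 had the higher mean in RS (50.3% of all genes did), at a median log2 fold change of 0.15. Of the same 8, 0 had an unadjusted edgeR p under 0.05. Over all genes 4.75% were under that threshold with the higher mean in RS and 3.61% with the lower. The dendritic cell markers summed to 54.2 ± 4.63 and 59.3 ± 11.4 CPM, with Itgax most abundant and 1 of 7 under that threshold with the higher mean in RS. Itgax made up most of that sum, at 42.3 ± 3.81 CPM in RS and 48.6 ± 11.2 in NR. Its mean was lower in RS, while 5 of the 7 markers had the higher mean in RS. The endothelial markers summed to 151 ± 7.39 and 164 ± 12.8 CPM, with Pecam1 most abundant. Of the 5, 4 had the lower mean in RS, 2 of them under that threshold. The plasmacytoid dendritic cell markers summed to 412 ± 17.0 and 404 ± 25.4 CPM, nearly all of it from Bst2, itself induced by interferon, and the transcription factor Tcf4. Bst2 was at 216 ± 22.1 CPM in RS and 187 ± 23.3 in NR and was the 1 of 5 under that threshold, while Tcf4 was at 188 ± 23.2 and 211 ± 19.3 CPM (SD, n = 5), the lower mean being in RS (unadjusted p above 0.05). Of the 5 markers 4 had the higher mean in RS. Tcf4 is named after its values were seen. The part of these cells in the values of the ligands and of Cxcr3 was not tested.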

How the data were processed

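RNA of 10 WEHI 164 tumor pieces was sequenced as 150 bp paired-end reads. The authors estimated transcript abundance with Kallisto against mouse GRCm38 and summed it to genes with tximport. What was deposited is an estimated count for each gene and tumor, with no scaling for depth or length. The annotation release is not given in the sources used here. Of 36009 rows, 9580 carried no name (1.2% to 1.49% of the counts) and were left out. Rows sharing a name (44 names) were summed and counts rounded to whole numbers.

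Genes above the CPM minimum that the study's methods give for its time course, in at least 3 tumors, were kept (14944). The main test of RS against NR was the quasi-likelihood test of edgeR 4.0.16 (R 4.3.3; TMM, Benjamini-Hochberg, threshold 0.05). DESeq2 1.42.0 was an alternative, as was limma-voom (limma 3.58.1). Each SE is the size of the log2 fold change divided by √F. The biological coefficient of variation was 10.1%. Exact two-sided permutation tests used log2(CPM + 1), ratios used counts plus 0.5, and correlations over 10 tumors used resampled permutations, exact for 8 tumors. Differences of log2(CPM + 1) understate changes of low genes such as Cxcr3. Normalization, filter, test, pseudocount and each tumor left out were varied. The labels name no batch, and each tumor is 1 mouse. The 45 pairs of tumors differed by at least 5.05 times what sampling gives (chi-square per gene), so none was a repeat.

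On simulated data (14805 genes) for RS against NR, 88% of 2-fold and 99% of 4-fold changes were called, with 4 unchanged genes. Changes as small as those of the 4 members were not simulated, so the share called at that size is not known. Coordinates and transcript lengths are from GENCODE on GRCm38. The members, lists and motif letters were chosen with earlier results of these data known. The genes named are the 4 members, the inducers, removers and locus neighbors, the 3 smallest p of the other pathway lists, the 5 genes most like each member, and of each marker list the most abundant gene and those at 0 counts; 2 genes that this rule names are not reported here. Cd3e and Ptprc served as denominators, and Krt5 and Trac are named as a marker near 0 and one not in the table.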

Additional observations from a re-analysis of the deposited data

Results flagged for a closer look

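In 90 groups of 5 tumors examined, the 4 members, their ratios and the pathway genes included, 3 held a tumor far from the other 4, where chance would give about 4.5 (1 in 20). The log2 ratio of Cxcl11 to Cxcl10 was -2.31 in RS tumor 5, while the other RS tumors were at -2.05 to -1.97. That tumor had the second highest Cxcl10 of the 10 tumors, at 233 CPM, and the lowest Cxcl11 of the RS tumors, at 46.9 CPM. Jak1 was at 7.90 on log2(CPM + 1) in NR tumor 1, with the other NR tumors at 7.77 to 7.81. Nfkb1 was at 7.55 in the same tumor, with the others at 7.01 to 7.09.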

How the results depend on the processing

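The log2 fold changes of the 4 genes kept their direction, and no adjusted p was under 0.05, in all 8 alternatives of normalization, filter, test and row handling and in the 10 fits that left out a tumor each. In the 8 alternatives Cxcl9 ranged from 0.50 to 0.58 (adjusted p 0.555 to 0.630), Cxcl10 from 0.50 to 0.53 (0.192 to 0.580), Cxcl11 from 0.51 to 0.55 (0.202 to 0.580) and Cxcr3 from 0.66 to 0.78 (0.516 to 0.657). With a tumor left out they ranged from 0.37 to 0.66, 0.41 to 0.62, 0.42 to 0.63 and 0.64 to 0.99. The number of genes called was 0, against 1 with DESeq2 and 0 to 10 with a tumor left out. All 10 came from leaving out RS tumor 5, where 2095 genes had an unadjusted p under 0.05 and the 4 genes were not among those called. Cxcr3, the scarcest gene, had an unadjusted p of 0.0809 with limma-voom and one under 0.05 in only 4 of the 10 fits with a tumor left out. Cxcl9 had one under 0.05 in 8 of these 10 fits, with 0.0655 without RS tumor 11 and 0.0626 without NR tumor 7.

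The exact permutation differences with a tumor left out ranged from 0.40 to 0.71 for Cxcl9 (p 0.00794 to 0.127, above 0.05 in 8 of 10), 0.43 to 0.63 for Cxcl10 (p = 0.0556 without RS tumor 11), 0.42 to 0.62 for Cxcl11 (p = 0.0635 without RS tumor 9 or 11) and 0.30 to 0.53 for Cxcr3 (p = 0.00794 without RS tumor 5 and 0.0873 to 0.175 without any other). Fewer tumors leave fewer assignments of the labels. The ratio differences ranged from -0.0268 to 0.10 for Cxcl9 to Cxcl10, -0.0220 to 0.0663 for Cxcl11 to Cxcl10 and -0.0215 to 0.12 for Cxcl9 to Cxcl11, so their sign is not settled. They ranged from 0.37 to 0.50 for Cxcr3 to Cd3e (adjusted p = 0.0397 without NR tumor 3) and 0.36 to 0.71 for Cxcr3 to Ptprc (adjusted p = 0.0397 without RS tumor 5). The r of Cxcr3 with Cxcl9 lost its call without the 2 farthest tumors (0.689) and as deviations from group means (0.460), as did that with Cxcl11 (0.592 and 0.455). By rho, Cxcl9 with Cxcl10 (0.810) and Cxcl10 with Cxcl11 (0.667) lost theirs without the 2 farthest tumors. The cause was not tested. No paired analysis was possible because the tumor numbers are unique across the groups.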

Other observations

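Of 8 CXC chemokines that do not act through CXCR3, 7 had the higher mean in RS (50.3% of all genes did), 2 with an unadjusted edgeR p under 0.05 (4.75% of all genes), and 1 with the lower mean was under it (3.61%), while 0 had an adjusted p under 0.05. Their median log2 fold change was 0.38. Cxcl2 and Cxcl3, which draw neutrophils through CXCR2, had log2 fold changes of 0.88 (SE 0.33) and 1.09 (SE 0.50), both under 0.05 before adjustment. Cxcl14, a chemokine of epithelium and fibroblasts, was at 11.5 ± 2.88 CPM (SD, n = 5) in RS and 17.3 ± 4.04 in NR, a log2 fold change of -0.58 (SE 0.18, edgeR adjusted p = 0.555).

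Neutrophil markers summed to 33.9 ± 12.4 CPM (SD, n = 5) in RS and 22.1 ± 6.45 in NR, with Csf3r most abundant, 2 of the 5 markers past the filter under an unadjusted p of 0.05 with the higher mean in RS (4.75% of all genes), and Ly6g at 0 to 2 counts. B cell markers were near 0, at 1.42 ± 0.122 and 1.53 ± 0.379 CPM, with Cd79b most abundant and 0 of the 2 past the filter under that threshold (8.36% of all genes in either direction). Of the fibroblast and fibrosarcoma markers 2 of 7, and of the skeletal muscle markers 1 of 5, were under it with the lower mean in RS (3.61% of all genes). The muscle markers, led by Acta1, summed to 108 ± 46.7 CPM in RS and 145 ± 40.3 in NR. The keratinocyte markers, led by Dsp, summed to 17.2 ± 1.66 and 17.4 ± 1.18 CPM, and the adipocyte markers, led by Fabp4, to 24.1 ± 6.51 and 26.1 ± 8.78 CPM, with 0 under that threshold in either list.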
